A study of Mus musculus with 14 samples.

Results

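The 10 genes described here are Tma16, Phactr3, Epb41l4a, Itgad, Sh2b2, Pla2g3, Zfand4, Znfx1, Setdb2 and Rnpep. They were chosen by name, because earlier results of these same data had them higher after morphine in sorted oligodendrocytes and mostly also in oligodendrocytes of the nucleus accumbens. They were also grouped apart from known targets of glucocorticoid hormones. The list of glucocorticoid-responsive genes used below does not hold them, and whether the hormone acts on them was not tested. All 10 were found among 32958 genes of the sorted-cell table and among 20856 genes shared by the accumbens tables, and all 10 passed the filter on low counts in both kinds of oligodendrocyte. Their difference between morphine and mock oligodendrocytes is what chose them, so it is given below as a description and without a test.

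All mice were male C57BL/6 mice, and they received morphine sulfate or, as the mock group, saline into the peritoneum. The 3 morphine and 3 mock libraries of sorted cells hold RNA of oligodendrocytes purified from whole brains of mice aged 70 days, amplified before sequencing. The 4 morphine and 4 mock accumbens samples are Drop-seq libraries, in which single cells are caught in droplets and each captured transcript carries a unique molecular identifier (UMI), and each was made from 2 pooled mice. In both groups, pools 1 and 2 came from mice of 37 to 45 days and pools 3 and 4 from mice of 78 to 82 days; dose and collection time are not given in the sources used here.

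Oligodendrocytes wrap axons in myelin, and they arise from precursors through a newly formed stage. The 10 genes do not share a pathway. Tma16 encodes a protein that, in yeast and human cells, binds the large ribosomal subunit while it is being assembled. Phactr3 encodes a protein that binds actin and protein phosphatase 1, and Epb41l4a belongs to the band 4.1 family, which links membrane proteins to the cytoskeleton. Itgad encodes the integrin alpha D subunit, known from leukocytes, where it pairs with the beta 2 subunit. Sh2b2 encodes an adaptor of the insulin receptor and of the kinase Jak2, and Pla2g3 a secreted phospholipase A2. Zfand4 encodes a protein with an AN1-type zinc finger, Znfx1 a zinc finger helicase of antiviral defence, Setdb2 a SET domain protein related to methyltransferases of histone H3 lysine 9, and Rnpep the enzyme aminopeptidase B.

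Reads assigned to genes numbered 14989118 to 23456702 per sorted library, and 15% to 16.9% of them were mitochondrial. Summed oligodendrocyte markers stood at 18200 to 18620 counts per 1000000 counts (CPM) in morphine libraries and 16380 to 17320 CPM in mock libraries. Summed microglia markers reached 52.5 to 53.2 CPM in morphine and 53.3 to 63.0 CPM in mock libraries, and summed neutrophil and other leukocyte markers 1.26 to 2.69 CPM in morphine and 3.76 to 4.87 CPM in mock libraries. Summed endothelial markers stood at 38.8 to 52.4 CPM in morphine and 61.2 to 64.9 CPM in mock libraries, with 4 of 8 lower, and summed excitatory neuron markers at 18.5 to 20.1 CPM in morphine and 22.3 to 27.5 CPM in mock libraries. The part of these marker differences in the values below was not tested. The 36000 accumbens barcodes, of which 47 sequences occurred in more than 1 pool, gave 32533 cells with a median of 2158 UMIs. The 3541 oligodendrocyte-like cells, 1782 from morphine and 1759 from mock pools, formed clusters 2 and 12, which were built without the 10 genes. Their pools held 581129 to 1424283 UMIs in the morphine group and 478342 to 1502170 UMIs in the mock group.

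In the sorted cells every morphine library lay above every mock library for all 10 genes. The log2 differences, morphine over mock, ran from 1.75 for Epb41l4a to 4.94 for Sh2b2, with a median of 2.76 against -0.02 over all 15751 genes tested. Over those genes edgeR's quasi-likelihood test called 8.09% higher and 6.68% lower in morphine at an adjusted p under 0.05, and 13.1% had all morphine above all mock libraries; nothing is read from these shares for genes that the same contrast chose. Among the 1275 genes called higher, ordered by size of the log2 difference, Sh2b2 stood at rank 2, Zfand4 at rank 3 and Tma16 at rank 6, while Epb41l4a stood at rank 108. The authors' deposited table, made from the same libraries, gives log2 fold changes of 1.72 for Epb41l4a to 4.67 for Sh2b2.

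**Figure D1:**
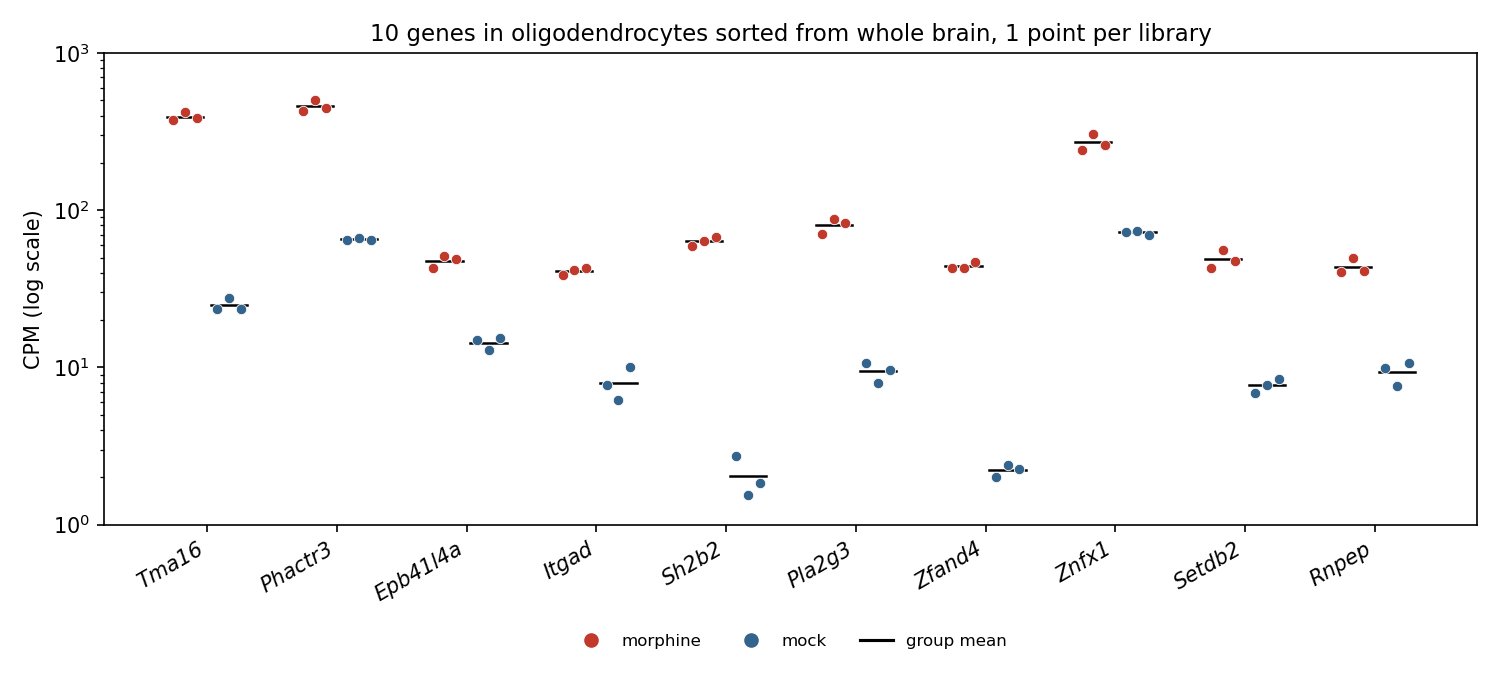
CPM (log axis) of the 10 genes in oligodendrocytes sorted from whole brain, with 1 point per library, 3 morphine libraries (red, left) and 3 mock libraries (blue, right) for each gene, and a bar at each group mean. The groups do not overlap for any of the 10 genes, and the widest gap is that of Sh2b2, with 58.9 CPM in the lowest morphine library and 2.74 CPM in the highest mock library.

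Tma16, the ribosome assembly gene, had 373, 422 and 384 CPM in the morphine libraries, against 23.6, 27.7 and 23.4 CPM in the mock libraries. The 3 morphine libraries lay close together and far above the mock ones, a log2 difference of 4.01 (SE 0.075), or 16.1-fold. Of the cytoskeletal genes, Phactr3 had 427, 505 and 444 CPM in morphine libraries and 64.4, 66.6 and 64.8 CPM in mock libraries, a log2 difference of 2.84 (SE 0.065). It was the most abundant of the 10 genes in morphine cells also when set against exon length, at 71.6 CPM per kilobase, ahead of Tma16 at 51.4 and Znfx1 at 33.0 CPM per kilobase. Epb41l4a had 43.2, 51.0 and 48.9 CPM after morphine and 14.9, 12.9 and 15.3 CPM in mock libraries. Its log2 difference of 1.75 (SE 0.088) was the smallest of the 10.

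The signalling adaptor Sh2b2 was low in mock cells and had the largest difference of the 10 genes. It had 58.9, 63.8 and 67.4 CPM in morphine libraries, against 2.74, 1.53 and 1.84 CPM in mock libraries, a log2 difference of 4.94 (SE 0.128). Zfand4 showed the same shape, with 42.6, 43.1 and 47.0 CPM in morphine and 1.994, 2.402 and 2.273 CPM in mock libraries (log2 4.35, SE 0.113). Per kilobase of exon, mock cells held 0.377 CPM of Sh2b2 and 0.532 CPM of Zfand4, the lowest of the 10 genes. Pla2g3, the secreted phospholipase, had 70.7, 88.0 and 82.5 CPM in morphine and 10.7, 8.01 and 9.58 CPM in mock libraries (log2 3.10, SE 0.10). The integrin Itgad had 38.5, 41.9 and 42.9 CPM in morphine and 7.70, 6.21 and 10.01 CPM in mock libraries (log2 2.38, SE 0.114).

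Znfx1, the helicase, was among the 3 most abundant genes of the set per kilobase. It had 243, 307 and 261 CPM after morphine and 73.1, 74.3 and 69.7 CPM in mock libraries, a log2 difference of 1.93 (SE 0.074). Setdb2 averaged 48.6 ± 6.53 CPM in morphine and 7.72 ± 0.793 CPM in mock libraries, and Rnpep 43.8 ± 5.16 CPM in morphine and 9.36 ± 1.57 CPM in mock libraries (SD, n = 3 each). Their log2 differences were 2.68 (SE 0.107) for Setdb2 and 2.23 (SE 0.110) for Rnpep.

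RefSeq's promoter table for GRCm38.p6, which covers 250 bases before to 50 bases after a listed start site, held 8 windows of 6 of the genes. Phactr3, Epb41l4a, Itgad and Pla2g3 had none in it. The windows of the 3 genes with the largest differences in sorted cells are printed on the gene's own strand, with every match to a searched motif in capitals. They are chr8:66486481-66486780 (minus strand) for Tma16, chr5:136244891-136245190 (minus strand) for Sh2b2 and chr6:116263969-116264268 (plus strand) for Zfand4. In the GENCODE annotation used below, Sh2b2 spans 136218147 to 136246556, so its window lies within the gene and not at its outer start.
Tma16: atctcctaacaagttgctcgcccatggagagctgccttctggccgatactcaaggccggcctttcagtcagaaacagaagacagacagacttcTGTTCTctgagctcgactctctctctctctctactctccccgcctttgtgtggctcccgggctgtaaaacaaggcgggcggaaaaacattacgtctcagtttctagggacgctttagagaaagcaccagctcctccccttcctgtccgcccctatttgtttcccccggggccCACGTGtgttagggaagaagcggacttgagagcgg
Sh2b2: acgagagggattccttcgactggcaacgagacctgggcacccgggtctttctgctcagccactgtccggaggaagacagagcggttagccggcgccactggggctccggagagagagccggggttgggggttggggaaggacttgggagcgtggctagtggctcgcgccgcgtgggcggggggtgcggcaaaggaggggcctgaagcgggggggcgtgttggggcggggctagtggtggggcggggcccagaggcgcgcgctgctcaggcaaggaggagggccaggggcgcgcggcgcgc
Zfand4: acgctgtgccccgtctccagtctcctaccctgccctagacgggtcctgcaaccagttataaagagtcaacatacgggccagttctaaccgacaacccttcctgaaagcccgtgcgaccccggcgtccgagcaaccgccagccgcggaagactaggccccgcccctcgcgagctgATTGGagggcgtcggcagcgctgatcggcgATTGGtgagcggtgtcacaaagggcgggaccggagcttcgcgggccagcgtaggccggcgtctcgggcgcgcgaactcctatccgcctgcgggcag
Motifs were searched on both strands and no matches overlapped. The capitals in Tma16 mark TGTTCT, the half-site of the glucocorticoid receptor element, at bases 94 to 99 of the window, and the E-box CACGTG at bases 266 to 271. TGTTCT was in 19% and CACGTG in 7.15% of all 32851 promoter windows. Those of Zfand4 mark 2 matches to the CCAAT box on the other strand, a motif found in 37.4% of all windows and also in that of Setdb2. The Sh2b2 window held no match, and no window of the 6 genes held the full glucocorticoid receptor element (0.475% of all windows), the forkhead site GTAAACA (3.65%) or the heat shock element (0.603%). The share of G and C was 72.3% for Sh2b2, 66.7% and 52.3% for the 2 windows of Zfand4 and 55.3% for Tma16, against a median of 52.7% over all windows.

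In the accumbens oligodendrocytes all 10 genes had higher means in the morphine pools, and for 8 of them every morphine pool lay above every mock pool. Among all 8496 genes tested in this class, 1.33% had all morphine above all mock pools and edgeR called 0.0942% higher at an adjusted p under 0.05, or 8 genes, against 0 without mock pool 2; this contrast too was in view when the genes were chosen, so nothing is read from these shares. The median log2 difference of the 10 was 1.56, against -0.01 over all genes tested. The level of a gene in such a class can differ through fewer expressing cells or less RNA per cell, and the sums alone do not separate these.

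Tma16 had 991, 360, 802 and 615 CPM in morphine pools 1 to 4, against 71.1, 97.2, 122 and 248 CPM in mock pools 1 to 4. The groups did not overlap, with morphine pool 2 and mock pool 4 nearest to each other, and the log2 difference of the groups was 2.41 (SE 0.344). Phactr3 had 2051, 1067, 1820 and 1655 CPM in morphine and 374, 474, 540 and 864 CPM in mock pools, again without overlap (log2 1.62, SE 0.253). Morphine pool 2 was the lowest morphine pool and mock pool 4 the highest mock pool for both genes. Itgad had 208, 176, 295 and 244 CPM in morphine and 60.6, 75.2, 91.5 and 111 CPM in mock pools (log2 1.497, SE 0.217).

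Epb41l4a, which had the smallest difference in the sorted cells, had the largest here. It had 25.8, 18.3, 33.6 and 17.5 CPM in morphine and 0, 5.33, 4.29 and 5.17 CPM in mock pools (log2 2.47, SE 0.432), from 93 UMIs in morphine and 17 UMIs in mock pools. In mock pool 1, the smallest, there was no UMI of Epb41l4a, Sh2b2 or Pla2g3 among 185 oligodendrocytes. Sh2b2 had 34.4, 21.8, 22.8 and 24.1 CPM in morphine and 0, 11.3, 4.29 and 10.3 CPM in mock pools (log2 1.72, SE 0.403). Pla2g3 had 10.3, 26.0, 41.2 and 27.4 CPM in morphine and 0, 6.66, 4.29 and 11.2 CPM in mock pools (log2 2.10, SE 0.458), so that morphine pool 1 fell just below mock pool 4. For these 3 genes the fitted differences rest on few UMIs and depend on how a count of 0 is handled.

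Znfx1 and Rnpep had the tightest groups. Znfx1 had 107, 80.7, 94.3 and 106 CPM in morphine and 37.6, 47.3, 37.2 and 44.8 CPM in mock pools (log2 1.25, SE 0.184). Rnpep had 80.9, 92.0, 93.3 and 75.7 CPM in morphine and 48.1, 50.6, 38.6 and 44.8 CPM in mock pools (log2 0.97, SE 0.174). Setdb2 averaged 38.2 ± 14.2 CPM in morphine and 14.8 ± 5.90 CPM in mock pools (SD, n = 4 each; log2 1.31, SE 0.320). Zfand4, at rank 3 in the sorted cells, had the smallest difference here, with 15.5, 41.4, 34.7 and 46.6 CPM in morphine and 18.8, 14.0, 22.9 and 36.2 CPM in mock pools (log2 0.70, SE 0.323). Its groups overlapped, and in pair 1 the mock pool was the higher.

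**Figure D2:**
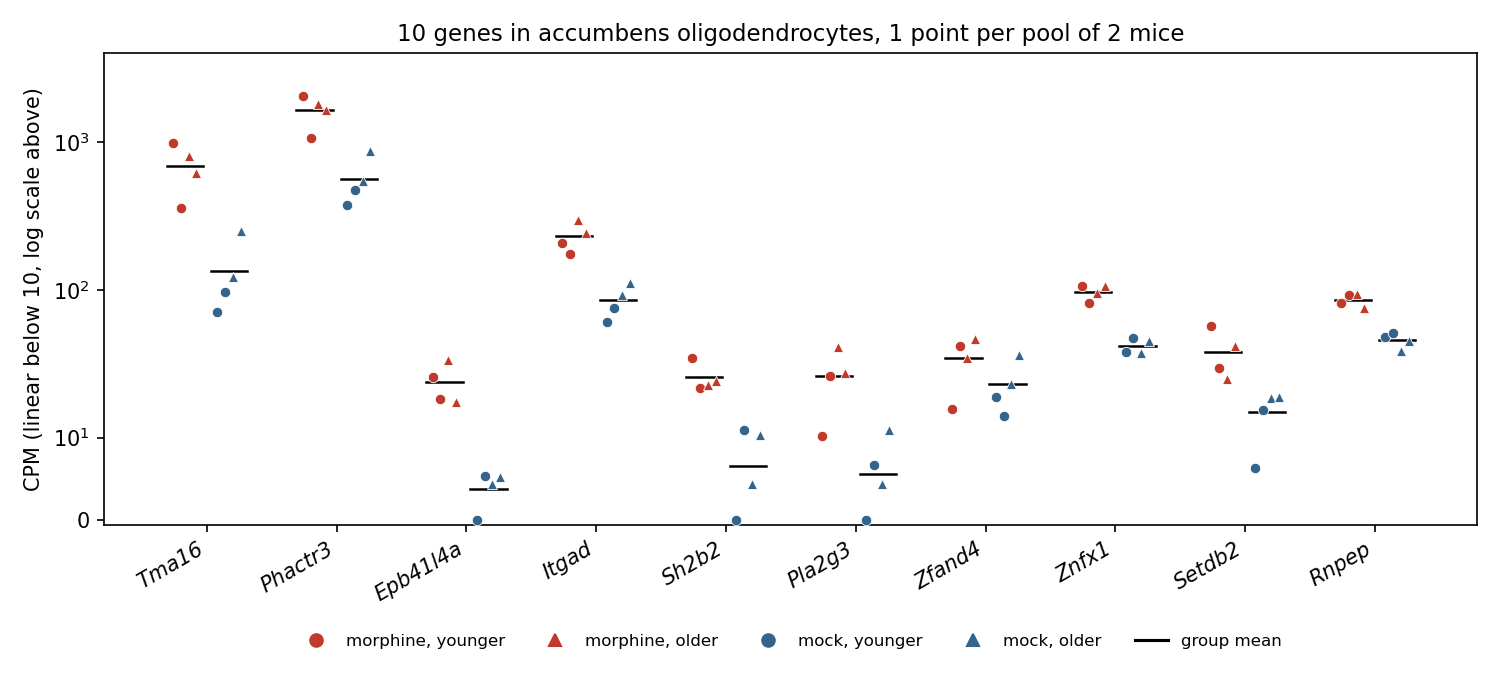
CPM of the 10 genes in accumbens oligodendrocytes (axis linear below 10 CPM and logarithmic above), with 1 point per pool of 2 mice, morphine (red, left) and mock (blue, right), circles for the younger and triangles for the older pools, and a bar at each group mean. The groups are separate for 8 genes and overlap for Pla2g3 and Zfand4; 3 genes stand at 0 in mock pool 1.

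Other values moved with treatment in the same cells. The median mitochondrial share of an oligodendrocyte was 4.69% to 7.47% in morphine pools and 2.95% to 4.33% in mock pools. The mitochondrial ribosomal RNA mt-Rnr2 stood at 37620 to 65610 CPM in morphine and 18720 to 30230 CPM in mock pools. Globin messages stood at 173.5 to 1029 CPM in morphine and 739 to 4012 CPM in mock pools. Their part in the differences of the 10 genes was not tested; with the mitochondrial genes left out of the table, a setting added after the data were seen, the median of the 10 was 1.57.

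The share of oligodendrocytes with a UMI was compared after each cell was thinned to 1000 UMIs, which left out 213 morphine and 204 mock cells below that depth. Phactr3 was found in 73.2% ± 9.58 of morphine and 35.3% ± 8.79 of mock oligodendrocytes (SD, n = 4 pools each), and in 83.9% ± 4.49 and 54.1% ± 12.3 before thinning. Tma16 was found in 34.0% ± 7.10 of morphine and 10.3% ± 4.47 of mock cells (44.8% ± 6.26 and 16.2% ± 6.41 before thinning), and Itgad in 20.1% ± 4.04 of morphine and 7.82% ± 1.74 of mock cells (34.4% ± 7.94 and 14.7% ± 4.35 before thinning). The other 7 genes were found in 2.06% to 8.92% of morphine and 0.287% to 4.90% of mock cells. The groups of Tma16, Phactr3 and Itgad did not overlap before or after thinning. The share of all genes that do so was not computed, and this contrast was in view when the genes were chosen, so nothing is read from it. Thinned in the same way, astrocytes, at a median of 1461 UMIs against 1835 in oligodendrocytes, had Itgad in 0.0896% ± 0.179 of morphine and 0.266% ± 0.223 of mock cells, and Tma16 in 2.59% ± 1.34 of morphine and 1.91% ± 1.38 of mock cells.

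Both clusters of oligodendrocytes showed the difference, at unlike levels. In cluster 2, the larger one, Tma16 averaged 854 ± 325 CPM in morphine and 174 ± 104 CPM in mock pools; in cluster 12 it averaged 274 ± 91.6 CPM in morphine and 48.8 ± 26.9 CPM in mock pools (SD, n = 4 each). Phactr3 averaged 1859 ± 440 CPM in morphine and 664 ± 257 CPM in mock pools of cluster 2, and 1098 ± 308 CPM in morphine and 344 ± 127 CPM in mock pools of cluster 12. Itgad averaged 271 ± 60.1 CPM in morphine and 106 ± 24.1 CPM in mock pools of cluster 2, and 126 ± 45.3 CPM in morphine and 38.4 ± 23.9 CPM in mock pools of cluster 12. Znfx1 differed little between the clusters, at 97.4 ± 10.8 CPM in cluster 2 and 96.5 ± 16.0 CPM in cluster 12 of morphine pools, and at 41.4 ± 8.87 and 42.5 ± 8.55 CPM in those clusters of mock pools. These clusters come from the same cells, so their difference carries no test.

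The levels of the genes across the 14 accumbens classes differed from gene to gene. Itgad was almost restricted to the later oligodendrocyte lineage. In mock pools it averaged 84.6 ± 21.7 CPM in oligodendrocytes and 66.4 ± 41.0 CPM in newly formed oligodendrocytes, which lie within each other's spread, and 0 to 4.28 CPM in the other 12 classes. Those 12 classes held between 0 and 5.06% of the oligodendrocyte level of Itgad. In oligodendrocyte precursors Itgad had no UMI in morphine and 1 UMI in mock pools. The genes whose level over the 14 classes of mock pools was most like it were Opalin (Pearson's r of 0.986), itself one of the markers that named the class, and S1pr5 (0.982).

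Tma16 was also highest in this lineage, at 172 ± 113 CPM in newly formed oligodendrocytes and 134 ± 78.5 CPM in oligodendrocytes of mock pools, whose spreads overlap. Neuroblasts followed at 46.1 ± 44.4 CPM, and the other classes ranged down to 4.33 CPM in ependymal cells. Its closest genes over the classes were Usp30 (r of 0.960) and Snx15 (0.931). Phactr3 ran through the whole lineage: in mock pools it averaged 576 ± 144 CPM in newly formed oligodendrocytes, 563 ± 212 CPM in oligodendrocytes and 425 ± 45.5 CPM in precursors, which overlap, then 257 ± 43.1 CPM in astrocytes and 165 ± 18.2 CPM in D2 medium spiny neurons. The lowest mean was 45.5 ± 50.2 CPM in ependymal cells, and the closest genes were Omg (r of 0.938) and Rab10 (0.930).

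Of the other 7 genes, Pla2g3 alone had its highest mock level in oligodendrocytes, from 26 UMIs and with a spread that overlapped that of astrocytes. Epb41l4a averaged 105 ± 32.8 CPM in ependymal cells of mock pools (n = 3), 19.3 ± 6.13 CPM in precursors and only 3.70 ± 2.51 CPM in oligodendrocytes. Zfand4 was at 46.3 ± 35.7 CPM in ependymal cells and 23.0 ± 9.53 CPM in oligodendrocytes of mock pools, and Sh2b2 at 27.4 ± 26.5 CPM in neuroblasts, 21.1 ± 17.2 CPM in microglia and 6.49 ± 5.33 CPM in oligodendrocytes; all of these spreads overlap. Rnpep was spread evenly, from 73.9 ± 12.4 CPM in microglia to 32.6 ± 13.8 CPM in mural cells of mock pools, with oligodendrocytes at 45.5 ± 5.19 CPM. Znfx1 ran from 43.2 ± 11.8 CPM in microglia and 41.7 ± 5.09 CPM in oligodendrocytes to 5.62 ± 7.61 CPM in dividing progenitors. Setdb2 ran from 17.6 ± 7.10 CPM in dividing progenitors and 14.8 ± 5.90 CPM in oligodendrocytes to no UMI in ependymal cells, and Pla2g3 was at 5.54 ± 4.67 CPM in oligodendrocytes and at most 2.61 ± 2.30 CPM, in astrocytes, elsewhere.

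Of these 7 genes, the closest over the classes were Ubxn4 (r of 0.925) and 1700029J07Rik (0.879) for Epb41l4a, Sh3bp2 (0.862) and Endov (0.818) for Sh2b2, and Gm13375 (0.878) and Hsd17b10 (0.843) for Pla2g3. For Zfand4 they were Fsd1l (0.838) and Lrrc56 (0.828), for Znfx1 Zfp58 (0.916) and Jade2 (0.909), for Setdb2 Cnep1r1 (0.917) and Zfp664 (0.904), and for Rnpep Kdm1b (0.876) and Pik3cg (0.830). All these correlations are over 14 classes of the same 4 mock pools, which share libraries and depth, and they are given as a description. Those of Pla2g3 rest on 74 of its UMIs in the mock pools.

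**Figure D3:**
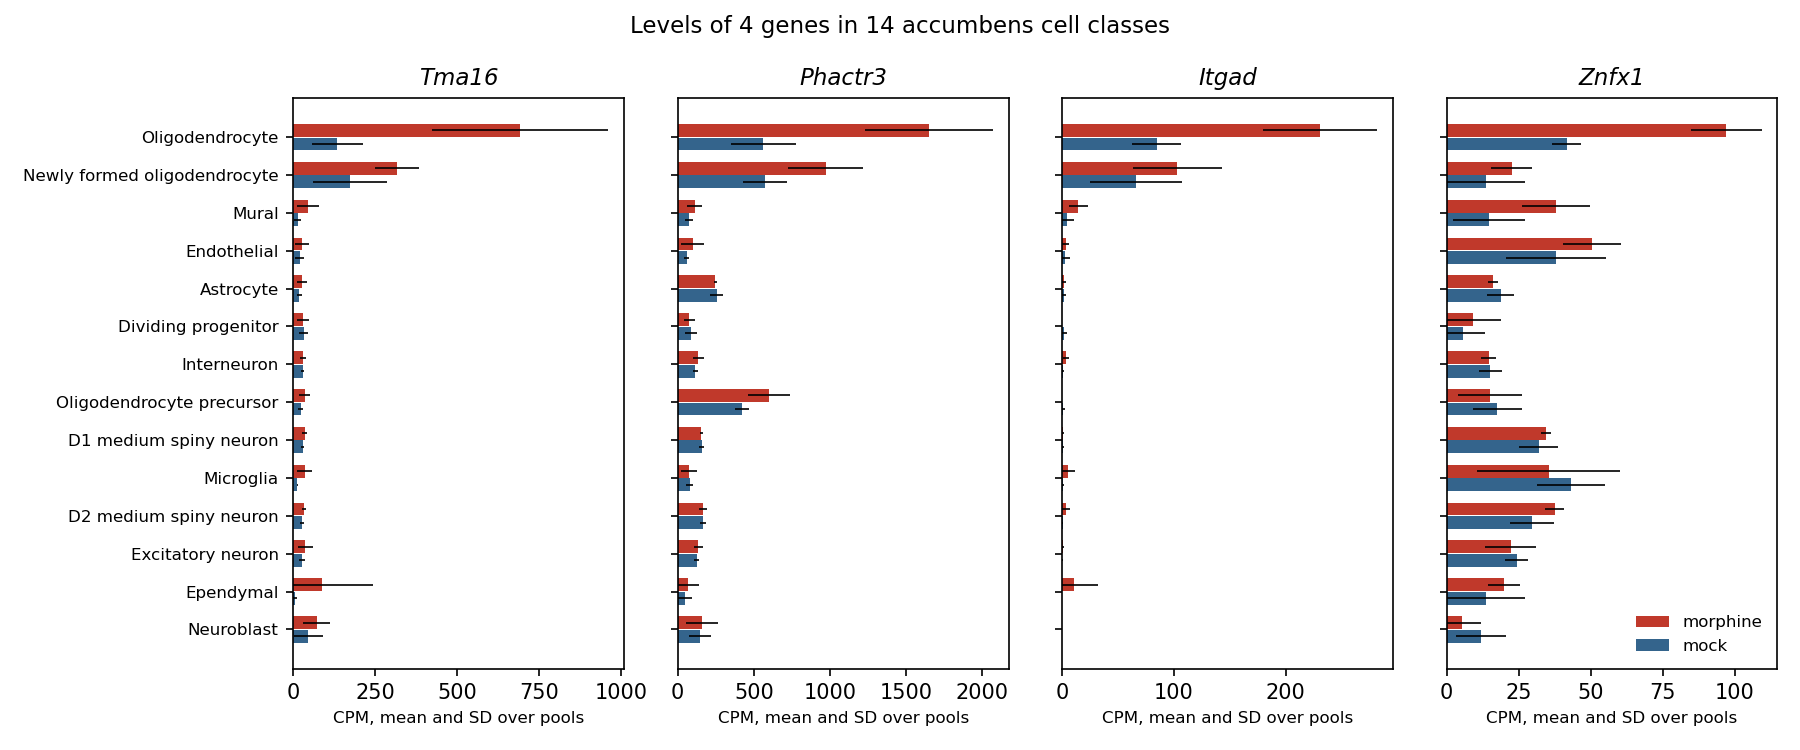
Mean CPM of Tma16, Phactr3, Itgad and Znfx1 in 14 accumbens cell classes, morphine pools (red, upper bar) and mock pools (blue, lower bar), with the SD over the pools (4 per group, 3 in ependymal mock and excitatory neuron morphine pools; the lower arm stops at 0) and classes ordered by Itgad in mock pools. Itgad stands out in oligodendrocytes and newly formed oligodendrocytes, Phactr3 also in precursors, and Znfx1 is spread over many classes.

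Whether the genes also differed after morphine in cells that the choice did not use was tested in the 13 other classes. Of the pairs of a gene and a class, 40 passed the count filter, and edgeR called 0 of the 40, as it called 0% of all 86240 gene and class pairs; 3 of the 40 had an unadjusted p under 0.05, and DESeq2 called 0. In 2 of the 40 pairs all morphine pools stood above all mock pools, against 0.758% of all pairs. The 3 of low unadjusted p were in the rest of the oligodendrocyte lineage. The share of all pairs at that unadjusted p is not set beside this count, so nothing is read from its size. In newly formed oligodendrocytes Phactr3 averaged 970 ± 245 CPM in morphine and 576 ± 144 CPM in mock pools, and its groups did not overlap, as in 0.834% of the genes of that class (log2 0.79, SE 0.253, adjusted p = 0.9999 with edgeR). Tma16 averaged 316 ± 67.3 CPM in morphine and 172 ± 113 CPM in mock pools of that class (log2 0.87, SE 0.351). In precursors Phactr3 averaged 599 ± 139 CPM in morphine and 425 ± 45.5 CPM in mock pools (log2 0.54, SE 0.212). Itgad averaged 103 ± 39.8 CPM in morphine and 66.4 ± 41.0 CPM in mock pools of newly formed oligodendrocytes (log2 0.61, SE 0.388).

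Outside the lineage none passed, and the values ran over a wide range; over all 40 pairs, 29 were above 0. Among the largest were Phactr3 in endothelial cells (log2 0.74, SE 0.416) and in mural cells (log2 0.60, SE 0.345) and Tma16 in astrocytes (log2 0.56, SE 0.409). Phactr3 averaged 246 ± 8.88 CPM in morphine and 257 ± 43.1 CPM in mock astrocytes (log2 0.03, SE 0.183), and 155 ± 9.81 CPM in morphine and 159 ± 16.0 CPM in mock D1 medium spiny neurons (log2 0.04, SE 0.133). Rnpep averaged 43.5 ± 4.50 CPM in morphine and 48.8 ± 9.33 CPM in mock D1 neurons (log2 -0.08, SE 0.154), and 60.1 ± 5.45 CPM in morphine and 73.9 ± 12.4 CPM in mock microglia (log2 -0.24, SE 0.317). Znfx1 averaged 37.5 ± 3.28 CPM in morphine and 29.7 ± 7.59 CPM in mock D2 medium spiny neurons, where the groups did not overlap, as for 0.62% of the genes of that class (log2 0.39, SE 0.196, adjusted p = 0.9999 with edgeR). Epb41l4a averaged 50.2 ± 34.7 CPM in morphine and 105 ± 32.8 CPM in mock ependymal cells (log2 -0.85, SE 0.531), the opposite sign to oligodendrocytes, and this did not pass either. No difference between oligodendrocytes and another class was itself tested.

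**Figure D4:**
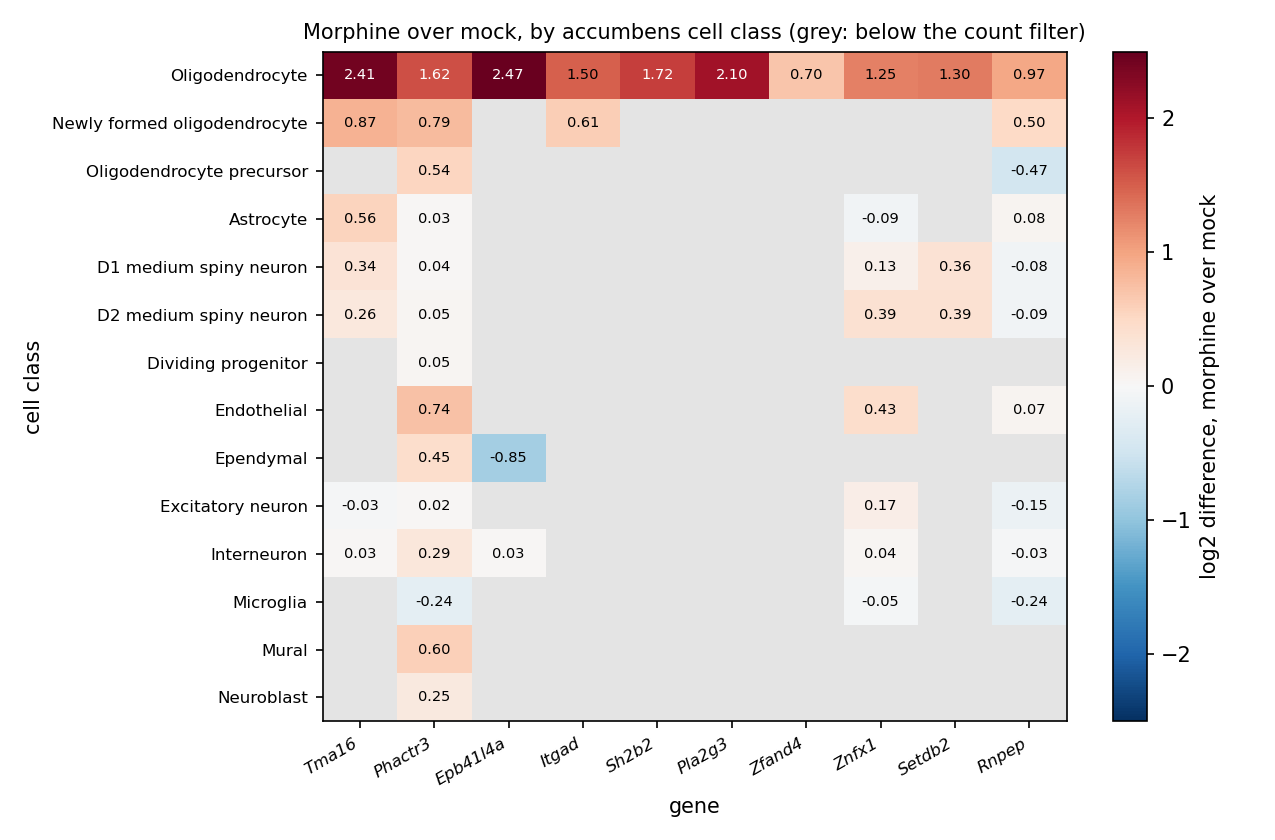
Log2 difference, morphine over mock, of each of the 10 genes (columns) in 14 accumbens cell classes (rows), as numbers and colour; grey cells were below the count filter. All 10 values in oligodendrocytes are positive, from 0.70 to 2.47, and the other rows run from -0.85 to 0.87.

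Age was not used to choose the genes. Same-numbered pools shared an age group and were correlated, as given below. The test of older against younger pools took them as independent, so its SEs and p-values may be too small. In oligodendrocytes, with treatment in the fit, edgeR called 0 of the 10 genes between older and younger pools, as it called 0% of all 8496 genes. With an unadjusted p under 0.05 there were 3 of the 10, and DESeq2 called 0 of the 3 to which it gave an adjusted p. The share of all genes at that unadjusted p is not set beside this count, so nothing is read from its size. Itgad averaged 185 ± 99.5 CPM in the 4 older and 130 ± 73.0 CPM in the 4 younger pools (log2 0.59, SE 0.155, adjusted p = 0.18 with edgeR). Zfand4 averaged 35.1 ± 9.70 CPM in older and 22.4 ± 12.8 CPM in younger pools (log2 0.70, SE 0.28, adjusted p = 0.354), and Phactr3 1220 ± 616 CPM in older and 992 ± 770 CPM in younger pools (log2 0.49, SE 0.216, adjusted p = 0.386), both with edgeR. The morphine difference itself did not differ detectably between the ages: edgeR called 0 of the 10 genes and 0% of all genes, 0 of the 10 had an unadjusted p under 0.05, and DESeq2 called 0. Tma16 came closest, with a smaller difference in the older pools (log2 -1.05, SE 0.577, adjusted p = 0.9999 with edgeR).

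Families and partners of the genes made a list of 122, of which 113 were tested in the sorted cells. With p adjusted over the whole table, 6 were called higher and 11 lower after morphine, close to the 14.8% called in either direction over all genes, so these counts are no result about the list, and their median log2 difference was -0.03, against -0.02 over all genes. For ribosome assembly, 0 of 26 factors of the large subunit passed with edgeR, 1 had an unadjusted p under 0.05 and DESeq2 called 0, with a median of -0.00. The actin and phosphatase 1 list held the largest rise: Phactr4, a close relative of Phactr3, had 261, 310 and 274 CPM in morphine libraries and 107, 96.3 and 101 CPM in mock libraries, without overlap (log2 1.498, SE 0.067, adjusted p = 6.59e-13 with edgeR). Phactr2 rose by 0.37 (SE 0.087), and the other 6 of the 8 genes of that list did not pass. Of 9 band 4.1 and FERM genes 0 rose and 2 fell, Epb41l4b by 0.55 and Frmd4b by 0.69 on the log2 scale.

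Of 12 partners of Sh2b2 in insulin and growth factor signalling, 2 rose and 3 fell. Sh2b3, another adaptor of the family, rose by 0.72 (SE 0.122) and Cbl, a ubiquitin ligase that removes active receptors, by 0.50 (SE 0.069), while Irs1, a substrate of the insulin receptor, fell by 0.51 on the log2 scale. Igf1r and Cblb, named after their values were seen, fell by 0.24 and 0.25 on the log2 scale. Those last 2 calls were lost with DESeq2, with no filter and without morphine library 1 or 3 or mock library 1 or 3, at adjusted p from 0.0538 to 0.231. That of Cblb was also lost with RLE scaling (0.0525 with edgeR) and with the replicate number as a block (0.0541 with edgeR). That of Igf1r was also lost without morphine library 2 (0.0600 with edgeR). Of 9 tested integrins and ligands, Itgam, which encodes another leukocyte alpha subunit, fell to 3.96 ± 0.573 CPM in morphine, against 6.91 ± 0.993 CPM in mock libraries (log2 -0.78, SE 0.169), and Itgav rose by 0.24. Of 8 tested phospholipases Pla2g4a, the cytosolic enzyme that releases arachidonic acid, fell to 34.2, 35.0 and 31.2 CPM in morphine libraries, against 57.2, 58.5 and 50.6 CPM in mock libraries (log2 -0.71, SE 0.080, adjusted p = 9.25e-07 with edgeR), and 0 rose.

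Among 6 relatives of Zfand4, Zfand1 rose by 0.39, a call lost without morphine library 2 (adjusted p = 0.0842 with edgeR) or 3 (0.0679), and Zfand6 fell by 0.68 on the log2 scale. Of 12 tested genes of RNA helicases and antiviral sensing around Znfx1 0 passed with edgeR, 1 had an unadjusted p under 0.05 and DESeq2 called 0. Of 11 tested genes of histone H3 lysine 9 methylation around Setdb2 0 rose, and Cbx5, a heterochromatin protein, fell by 0.185 on the log2 scale (adjusted p = 0.0499 with edgeR). RLE scaling, DESeq2, no filter, the replicate number as a block and leaving out any morphine library or mock library 1 or 3 ended that call. The adjusted p then ran from 0.0734 to 0.267. Of 12 peptidases around Rnpep 0 rose and 2 fell, Lta4h, which makes leukotriene B4, by 0.61 and 2010111I01Rik by 0.47 on the log2 scale. In the accumbens oligodendrocytes edgeR called 0 of 80 relatives tested, 6 had an unadjusted p under 0.05 and DESeq2 called 0. Nothing is read from the size of that count of 6, because the share of all genes at that unadjusted p is not set beside it. With the replicate number as a block 1 passed: Phactr4 averaged 109 ± 30.3 CPM in morphine and 62.9 ± 22.2 CPM in mock pools (log2 0.79, adjusted p = 0.474, and 0.0430 with the block, both with edgeR).

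As a comparison, of 27 tested genes of a list of glucocorticoid-responsive genes, which earlier results of these data had already shown to be higher, 25 rose and 1 fell in the sorted cells, with a median of 1.90.

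The genes next to the 10 on the chromosomes were looked up in GENCODE vM21 on GRCm38, the build named in the submitters' processing notes. Of the 20 nearest tested protein-coding genes, 1 on each side, 9 rose and 2 fell in the sorted cells, against 8.09% and 6.68% of all genes. Within 100 kb of the 10 genes, 12 of 40 tested genes rose and 3 fell. These 12 include the 9 nearest genes that rose, so the window mostly repeats the nearest genes. Nothing is read from it about genes farther away. Of the tested genes that overlap one of the 10, 4 of 4 rose. The sources used here do not say whether reads were counted by strand, so exons that overlap on the other strand cannot be told apart from the gene itself. The nearest genes share no exon base with the 10.

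Tma16 lies on chromosome 8 from 66473118 to 66486530 on the minus strand, and both of its neighbours rose. March1, a membrane-bound ubiquitin ligase gene that lies 1.48 kb away on the other strand, had 69.7, 73.0 and 70.7 CPM in morphine libraries and 32.6, 29.4 and 32.0 CPM in mock libraries (log2 1.203, SE 0.069, adjusted p = 3.51e-11 with edgeR). Tktl2, 25.2 kb away on the other side, averaged 5.61 ± 0.279 CPM in morphine and 1.74 ± 0.189 CPM in mock libraries (log2 1.72, SE 0.198). Setdb2, on chromosome 14 from 59402009 to 59440884 on the minus strand, also lay between 2 genes that rose. Cab39l, which encodes a scaffold of the kinase Stk11 and begins 88 bases away on the other strand, had 85.4, 109 and 90.9 CPM in morphine libraries and 43.7, 29.6 and 40.0 CPM in mock libraries (log2 1.34, SE 0.106, adjusted p = 5.09e-09 with edgeR). Phf11c, 6.63 kb away, averaged 11.3 ± 1.53 CPM in morphine and 2.99 ± 0.269 CPM in mock libraries (log2 1.93, SE 0.154).

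Around Itgad, on chromosome 7 from 128154376 to 128223816 on the plus strand, the neighbours that rose lay on one side. Nearest on that side was 9130023H24Rik, 10.6 kb away on the other strand, with 40.5 ± 3.99 CPM in morphine and 9.47 ± 1.47 CPM in mock libraries (log2 2.10, SE 0.107, adjusted p = 5.01e-12 with edgeR). Armc5 and Tgfb1i1, named after their values were seen, lie beyond it at 13.5 kb and 23.0 kb, with log2 differences of 2.12 and 2.62 in the same fit. The next tested genes on that side did not pass. They were Slc5a2 at 41.8 kb (log2 0.13) and BC017158 at 47.6 kb (log2 -0.03), also named after their values were seen. On the other side Itgax, a leukocyte integrin gene 3.72 kb away, did not pass, at 0.442 ± 0.208 CPM in morphine and 0.971 ± 0.604 CPM in mock libraries, and Itgam, at 35.9 kb, fell as given above. Cox6a2, which overlaps Itgad on the other strand and shares 70 exon bases with it, had 2.60 ± 0.620 CPM in morphine and 0.336 ± 0.236 CPM in mock libraries (log2 2.93, SE 0.422, adjusted p = 2.54e-05 with edgeR).

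Phactr3, on chromosome 2 from 178118975 to 178338492 on the plus strand, had Sycp2, a meiosis gene, 6.8 kb away. Sycp2 stood at 26.4 ± 2.32 CPM in morphine and 9.01 ± 0.179 CPM in mock libraries (log2 1.58, SE 0.099, adjusted p = 1.36e-10 with edgeR), and Zfp931 on the other side did not pass (log2 -0.27, SE 0.169). Pla2g3, on chromosome 11 from 3488284 to 3499350 on the plus strand, shares 401 exon bases with Inpp5j, an inositol phosphatase gene on the other strand, which had 89.6 ± 4.77 CPM in morphine and 29.9 ± 3.20 CPM in mock libraries (log2 1.599, SE 0.079). Its neighbour Selenom, 15.3 kb away, rose by 0.86 (SE 0.118), and Rnf185 did not pass. The neighbours of Zfand4, on chromosome 6 from 116264222 to 116330302 on the plus strand, rose by less: Washc2 by 0.40 (SE 0.059) and March8 by 0.44 (SE 0.056).

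At the other 4 loci none of the nearest genes named here rose, while an overlapping gene rose at Znfx1 and at Rnpep. Sh2b2, on chromosome 5 from 136218147 to 136246556 on the minus strand, had the largest difference of all, and Prkrip1 beside it did not pass (log2 0.33, SE 0.115, adjusted p = 0.0656 with edgeR), while Cux1, 1.58 kb away on the same strand, fell by 0.185 (SE 0.061, adjusted p = 0.0461 with edgeR), a call that every alternative but leaving out mock library 2 ended, with adjusted p from 0.0642 to 0.248. Epb41l4a, on chromosome 18, had Nrep, which did not pass, and Apc, which fell by 0.48 (SE 0.054), both over 100 kb away. Znfx1, on chromosome 2 from 167035793 to 167063015 on the minus strand, had Ddx27 0.846 kb away at 17.6 ± 1.63 CPM in morphine and 17.9 ± 2.22 CPM in mock libraries (log2 -0.00, SE 0.103), and Zfas1, which shares 82 exon bases with Znfx1 on the other strand, rose by 1.13 (SE 0.133). Rnpep, on chromosome 1 from 135262712 to 135284084 on the minus strand, lay between Gpr37l1 and Timm17a, which did not pass, and over the antisense gene Gm26642, which shares 368 exon bases with it and rose by 1.95 (SE 0.218).

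**Figure D5:**
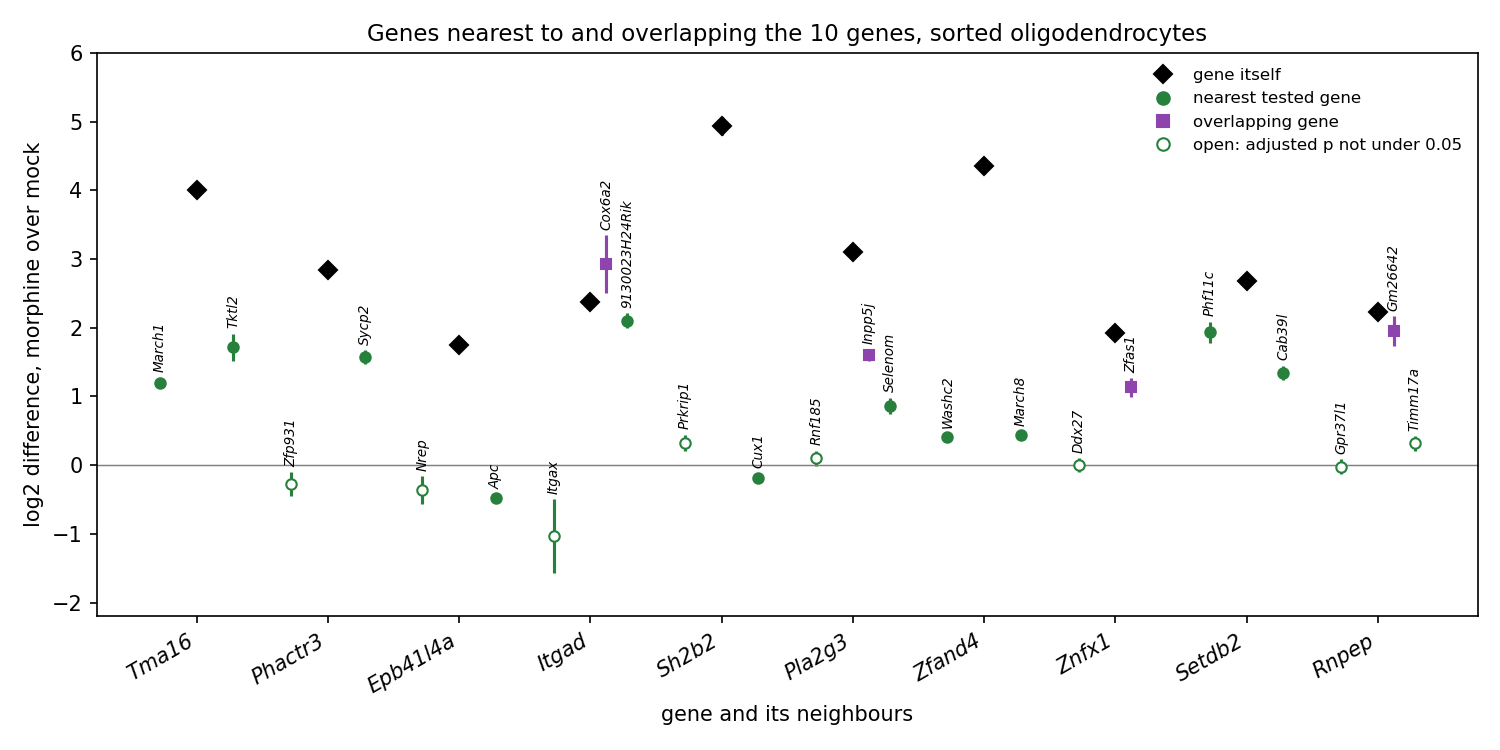
Log2 difference, morphine over mock, in sorted oligodendrocytes for each of the 10 genes (black diamonds), nearest tested protein-coding genes (green circles) and the tested genes that overlap it (purple squares), with standard errors; open symbols did not pass at an adjusted p under 0.05. Of the green circles, 9 lie above 0 and passed, among them both neighbours of Tma16, Setdb2 and Zfand4.

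In accumbens oligodendrocytes edgeR called none of these neighbours at an adjusted p under 0.05, and 2 of them had the smallest p. Cab39l had 212, 107, 158 and 105 CPM in morphine pools and 41.8, 73.2, 45.8 and 91.3 CPM in mock pools, which did not overlap (log2 1.196, SE 0.264, adjusted p = 0.134 with edgeR, 0.00480 with the replicate block and 0.00422 with DESeq2). Selenom had 547, 422, 511 and 419 CPM in morphine and 251, 380, 287 and 314 CPM in mock pools, again without overlap (log2 0.69, adjusted p = 0.207 with edgeR, 0.00569 with the block and 0.0217 with DESeq2). March1, with 48.2, 47.0, 17.4 and 41.6 CPM in morphine and 23.0, 38.0, 24.3 and 61.2 CPM in mock pools, showed no such difference (log2 0.06, adjusted p = 0.9997 with edgeR). Nor did the other nearest and overlapping genes that rose in the sorted cells and were tested here. Their log2 differences were 0.32 for Zfas1, 0.29 for Inpp5j, 0.23 for Washc2 and -0.12 for March8 (adjusted p = 0.9997 each with edgeR). The rest of those that rose were below the count filter.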

How the data were processed

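Sorted oligodendrocytes (3 morphine, 3 mock) and accumbens single cells (4 morphine, 4 mock pools of 2 mice) were analysed. The submitters' processing notes name Trimmomatic 0.36, STAR 2.4.2a, HTSeq, DESeq and DESeq2 and the build mm10. The deposited tables hold raw read counts per gene for the sorted libraries and raw UMI counts per gene and barcode for the pools, per the file headers. The authors' deposited comparison table gives log2 fold changes and p-values, as its header says. Columns of the sorted table carry the library numbers of the sample titles, which did not pair the libraries. Rows that name no gene held 69.47% to 74.34% of the sorted counts and were left out.

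The members and lists were chosen with earlier results of these data known. The genes named are the 10, at most 3 called genes of each list, the nearest tested and the overlapping genes, and the 2 genes most like each of the 10 over classes; exceptions are marked. Some results on neighbours and on marker messages are not reported here.

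Of 36000 barcodes, 33216 had at least 300 genes and at most 20% mitochondrial UMIs. Scrublet marked 683 (2.06%) as doublets, which were removed; in 5 pools it marked under 0.5%, from 0% to 0.2435%, and did not work there. The 32533 cells formed 26 Leiden clusters (scanpy 1.11.5), named from marker lists; 5 clusters (3949 cells) stayed unnamed, and names rebuilt in this way may differ from the study's. UMIs were summed per pool and class. Each table was fitted with edgeR 4.0.16 (R 4.3.3; TMM, filterByExpr, quasi-likelihood test, Benjamini-Hochberg adjustment over all genes), morphine over mock; DESeq2 1.42.0 was an alternative. On simulated data, genes changed by a log2 of 1 were recovered for 75% in the sorted table of 15751 genes and for 63% in the oligodendrocyte table of 8496 genes. Simulated samples were independent, without the correlation of same-numbered pools given below, so the real tables may recover fewer. The other classes were not simulated, so these shares say nothing about them. CPM was computed from the counts. Each standard error (SE) is the absolute log2 difference divided by the square root of F from edgeR's quasi-likelihood test. It is unreliable where the difference is near 0. PCR duplicates in the sorted libraries are not independent molecules. The p-values set a difference against the spread between these samples, which in the accumbens are pools of 2 mice and not single mice.

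Pools with the same number shared an age group, and their deviations from the group means correlated by 0.149 to 0.412 in oligodendrocytes, so the number was also fitted as a block. Alternatives were RLE scaling, no filter, DESeq2, each age alone, classes by marker score and leaving out each library in turn.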

Additional observations from a re-analysis of the deposited data

How the results depend on the processing

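The median log2 difference of the 10 genes was 2.68 to 2.82 in sorted cells without each library in turn (2.76 with all) and 1.42 to 1.79 in accumbens oligodendrocytes without each pool in turn (1.56 with all); with the replicate block it was 1.53. For single genes, 100 of 100 alternative values in sorted cells and 180 of 180 in accumbens oligodendrocytes kept the direction of the difference. The same contrasts chose the genes, so a kept direction was close to fixed in advance and nothing is read from these counts. In the sorted libraries the replicate numbers did not pair the samples: deviations of same-numbered libraries correlated by -0.119 to -0.007. With the replicate block there, the median was 2.75, 6 relatives rose and 9 fell, 14 neighbours rose and 1 fell, and 1230 genes in all were called higher and 970 lower, against 1275 and 1052. Of the neighbours in sorted cells, 1 and not 2 fell with RLE scaling, with DESeq2 and with no filter, and 1 to 2 fell when each library was left out; 13 to 14 rose. Of the glucocorticoid list, 0 to 1 fell when each library was left out, and 0 without morphine library 3. Of the relatives, 5 to 7 rose and 8 to 14 fell when each library was left out. In accumbens oligodendrocytes 1 relative, Phactr4, rose with no filter (adjusted p = 0.0260 with edgeR) and with the replicate block; the block called 13 genes of the glucocorticoid list, against 2 without it. With no filter 1 of the 10 genes was called with age, Tma16 (log2 0.63, adjusted p = 0.0396 with edgeR), and 1 in another class, Tma16 in ependymal cells (log2 3.78, adjusted p = 0.00482 with edgeR), where 37 of 42 morphine UMIs lay in morphine pool 1. With classes set by marker score, 5 and not 2 of the genes were highest in oligodendrocytes of mock pools. Where no value above shows one, the cause was not tested. Over all genes, oligodendrocytes of the accumbens had 8 genes called higher and 0 lower; the counts were 104 and 27 with the replicate block, 30 and 1 with DESeq2, 63 and 8 with no filter, 21 and 4 with age as a covariate, 0 and 0 with classes by marker score and in the older pools alone, 0 and 0 without mock pool 2, 12 and 1 without mock pool 4, 9 and 4 without morphine pool 1, 5 and 0 without morphine pool 3 and 13 and 0 without morphine pool 4. All morphine shares of oligodendrocytes with a UMI stood above all mock shares for 9 of the 10 genes after thinning to 1000 UMIs, 7 after thinning to 500 UMIs, 8 without thinning and 8 with classes by marker score. The share of all genes that do so was not computed, and the same contrast chose the genes, so nothing is read from these counts. Depth limits Epb41l4a, Sh2b2 and Pla2g3 most, with 17 to 32 UMIs in mock oligodendrocytes.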
